A study of Mus musculus with 10 samples.

Results

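The gene group described here is brain-derived neurotrophic factor (Bdnf), the other neurotrophins and their receptors in mouse visual cortex after removal of one eye. Its members were all probe sets with the single annotated symbol Bdnf, Ntf3, Ntf5, Ntrk2, Ntrk3 or Ngfr. Of these 6 genes, 3 were matched to a probe set, namely Bdnf, Ntrk2 and Ntrk3, with 1 probe set each, out of 12422 probe sets and 8251 named genes in all. The expression of Ntf3, Ntf5 and Ngfr was not analysed here. The 5 deprived samples were visual cortex from the side contralateral to the enucleated eye. The 5 non-deprived samples came from the ipsilateral side. All were from wild-type C57Bl6 mice whose eye had been taken out at postnatal day 14, and all tissue was collected at postnatal day 18, 4 days later. Both groups therefore carry the surgery, and there was no intact control. The labels call the samples pooled and name 4 mice without saying how these were divided over the 10 arrays, so p-values measure only the spread between these samples, which may be technical.

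Neurotrophins are small secreted proteins that support the survival, growth and synaptic plasticity of neurons. Each binds a preferred Trk receptor tyrosine kinase, and all of them bind the p75 receptor encoded by Ngfr. Trk receptors signal through Ras and ERK, PI3 kinase and Akt, and phospholipase C gamma. In visual cortex BDNF is known as a regulator of the maturation of inhibitory circuits and of the critical period for ocular dominance plasticity. Bdnf has several alternative promoters, some of which respond to calcium entry into active neurons, and its transcripts share the exon that encodes the protein.

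Bdnf, the ligand of TrkB, had lower signals on all 5 deprived arrays than on any non-deprived array. Its signals in arbitrary units were 1101, 1457, 1474, 1695 and 1216 in deprived replicates 1 to 5, against 1894, 2178, 2321, 1947 and 1828 in non-deprived replicates 1 to 5. Deprived replicate 1 was the lowest array and non-deprived replicate 3 the highest, and the groups did not overlap. The gap between them was narrow: deprived replicate 4 at 1695 and non-deprived replicate 5 at 1828 were 133 units, or 7.85%, apart. The deprived mean was 1388 ± 234 and the non-deprived mean 2033 ± 208 (SD over 5 arrays), a difference of -31.7%. In such tissue samples, fewer cells of a type and less RNA per cell cannot be told apart. Deprived arrays had a coefficient of variation of 16.8% and non-deprived arrays one of 10.2%. Over the 25 possible ratios of a deprived to a non-deprived array, the lowest was 0.474, the median 0.669 and the highest 0.927.

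On the log2 scale (signal plus a pseudocount of 16, which slightly understates changes), Bdnf differed by -0.56 ± 0.12 (SE), with a 95% interval from -0.80 to -0.31. This difference did not pass over all 7453 tested probe sets in limma (adjusted p = 0.36, unadjusted p = 0.00029). An adjusted p here is adjusted by the Benjamini-Hochberg method over all tested probe sets and called under 0.05. No probe set of the array passed that threshold, so percent called was 0.0. With the replicate number as a block 6 probe sets passed, and Bdnf, at an adjusted p of 0.0888 in limma, was not among them. In the fit without the block, 357 probe sets, or 4.79%, had an unadjusted p under 0.05. Of the tested probe sets, 2.36% were lower and 2.43% higher in deprived cortex at that unadjusted level. The exact two-sided permutation test for Bdnf alone, over 252 assignments of the arrays, gave p = 0.00794. This is the smallest value that such free reassignment allows, and groups that do not overlap always give it. The test therefore adds nothing to the lack of overlap, and it took the arrays as unpaired. Groups that do not overlap occurred in 0.953% of tested probe sets, and in 0.47% (35 probe sets) with the deprived arrays lower. Bdnf ranked 6 by unadjusted p among the 7453, and 41 by size among the 3578 probe sets with a negative estimate. Its residual SD within groups was 0.20 on the log2 scale, against a median of 0.20 over all tested probe sets of any brightness. Bdnf lay at percentile 91.2 of mean signal, and its spread was not set against that of equally bright probe sets.

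**Figure D1:**
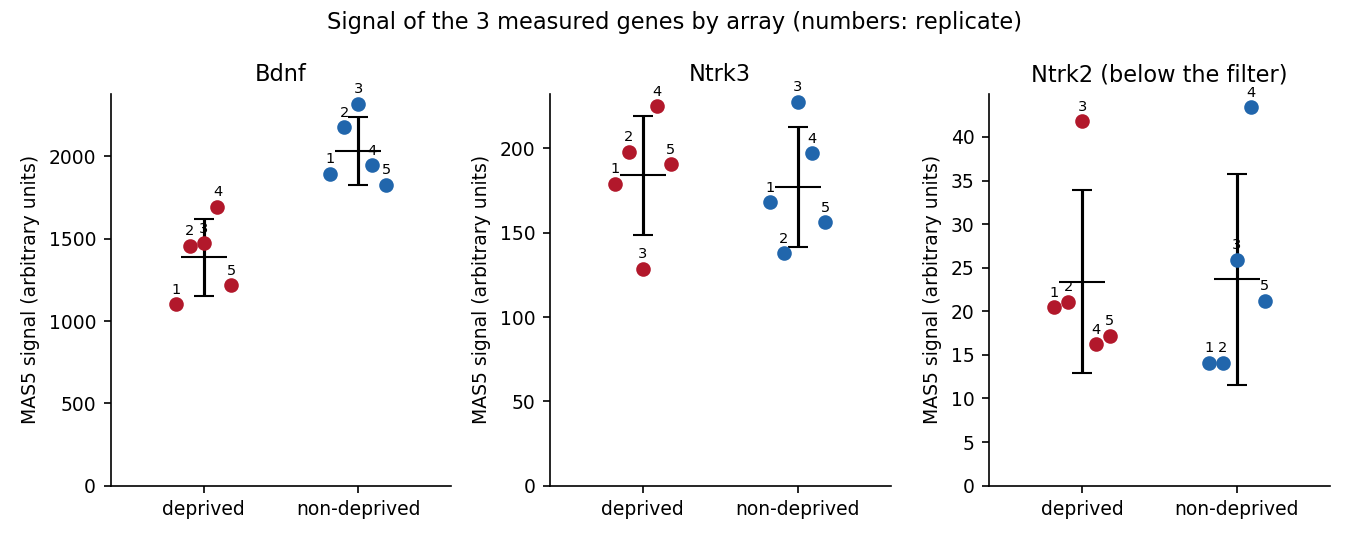
MAS5 signal (arbitrary units, axis from 0) of Bdnf, Ntrk3 and Ntrk2 on each of the 10 arrays, deprived at left and non-deprived at right, with replicate numbers beside the points and bars for the mean and SD (n = 5 each). The 5 deprived arrays for Bdnf lie between 1101 and 1695, below all non-deprived arrays at 1828 to 2321, whereas the groups overlap for Ntrk3 and Ntrk2.

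The direction for Bdnf held with each array left out and under each other setting. With single arrays left out, the log2 difference lay between -0.63 (without deprived replicate 4, the array nearest to the non-deprived group) and -0.48 (without deprived replicate 1, the lowest array). The adjusted p in limma ranged from 0.136 to 0.966 over these omissions.

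**Figure D2:**
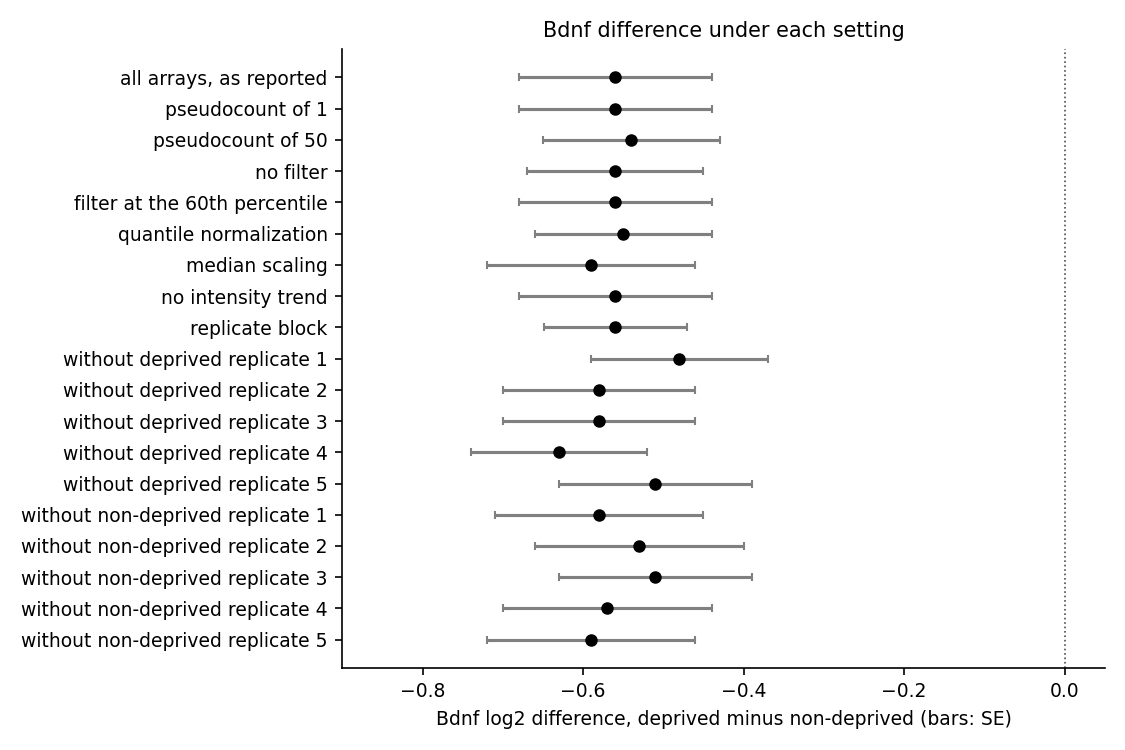
Bdnf log2 difference, deprived minus non-deprived (horizontal axis, points) with its standard error (bars), in the reported fit and under each other setting or left-out array (vertical axis). The estimates lie between -0.63 and -0.48 and none reaches 0.

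The RefSeq table (GRCm38.p6) lists 7 starts for Bdnf, each with its own promoter. The region that the Bdnf probe set reads is not given in the sources used here, so the signal could not be divided between these promoters. The 250 bases before each start were searched on both strands for the cyclic AMP response element half-site CGTCA (reverse TGACG), a known binding sequence of CREB. They were also searched for its full form TGACGTCA, which contains the half-site in both orientations, for the AP-1 element TGACTCA and for the E-box CACGTG. Of the 7 Bdnf windows, 1 held a half-site, start number 3 in the direction of transcription, at 35 to 31 bases before the start, and none held the full element, the AP-1 element or the E-box. Among all 32851 RefSeq windows of this length, 17.8% held the half-site, 1.55% the full element, 4.46% the AP-1 element and 6.02% the E-box. A match describes the letters only and shows no binding. This window is printed with those of Junb and Fos, the genes whose pattern over the arrays was closest to that of Bdnf, with the half-site in capitals. It lies at chr2:109692186-109692435 on the plus strand for Bdnf, at chr8:84978749-84978998 on the minus strand for Junb and at chr12:85473640-85473889 on the plus strand for Fos.
Bdnf start 3: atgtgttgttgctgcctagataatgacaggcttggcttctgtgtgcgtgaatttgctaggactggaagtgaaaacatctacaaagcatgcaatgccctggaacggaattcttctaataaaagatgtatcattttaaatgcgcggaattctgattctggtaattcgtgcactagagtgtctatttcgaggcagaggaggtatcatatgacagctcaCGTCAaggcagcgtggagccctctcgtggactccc
Junb: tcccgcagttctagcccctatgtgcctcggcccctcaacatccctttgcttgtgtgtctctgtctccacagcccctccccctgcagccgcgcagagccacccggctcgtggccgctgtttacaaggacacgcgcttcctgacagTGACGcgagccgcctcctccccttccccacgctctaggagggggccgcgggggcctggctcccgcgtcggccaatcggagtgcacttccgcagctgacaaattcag
Fos: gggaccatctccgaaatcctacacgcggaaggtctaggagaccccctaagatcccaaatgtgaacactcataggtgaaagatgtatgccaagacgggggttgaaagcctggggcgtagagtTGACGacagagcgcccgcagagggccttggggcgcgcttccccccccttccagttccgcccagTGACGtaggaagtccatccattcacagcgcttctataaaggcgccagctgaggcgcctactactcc
Junb has a half-site at 106 to 102 bases before its start, and Fos has one at 129 to 125 and another at 66 to 62 bases, all in the reverse orientation to that before Bdnf. The 1 Ntrk2 window, the 1 Ngfr window and both Ntf3 windows held no half-site, and 1 of the 2 Ntf3 windows held an E-box. Of the other genes most like or most opposite to Bdnf, described below, Phc2, Minpp1 and the opposite Dda1 also had a window with a half-site. Fh1, the next most alike after Junb and Fos, had none, nor had the opposite Mtor and Itgb7, and H2ax had no window. The half-site thus occurred with both patterns, but these few genes were picked as extremes. Whether it goes with a pattern like that of Bdnf was not tested.

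Ntrk3 encodes TrkC, the receptor of neurotrophin 3. Its signals were 179.1, 198.1, 128.7, 224.9 and 190.6 in deprived replicates 1 to 5, against 168.2, 137.7, 227.6, 197.0 and 156.2 in non-deprived replicates 1 to 5. The groups overlapped over nearly their whole range, with the lowest array deprived and the highest non-deprived. Ntrk3 averaged 184 ± 35.3 in deprived and 177 ± 35.4 in non-deprived samples (SD, n = 5 each). Its log2 difference was 0.05 ± 0.17 (SE), with a 95% interval from -0.31 to 0.41 (limma adjusted p = 0.992), so that a change of the size estimated for Bdnf in either direction lay outside the interval. The sign turned without deprived replicate 4 (-0.022) and without non-deprived replicate 2 (-0.028). No difference between the estimates for Bdnf and Ntrk3 was tested.

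Ntrk2 encodes TrkB, the receptor of BDNF and neurotrophin 4. Its probe set lay far below the signal filter, which is a signal of 115 (the 40th percentile of probe sets), and was not tested. Its signals were 20.5, 21.1, 41.8, 16.2 and 17.2 in deprived replicates 1 to 5, against 14.1, 14.1, 25.9, 43.4 and 21.2 in non-deprived replicates 1 to 5. One array of each group stood above the others, and the ranges overlapped. The means were 23.4 ± 10.5 in deprived and 23.7 ± 12.1 in non-deprived cortex (SD, n = 5 each). Fitted without a filter, the log2 difference had a 95% interval from -0.49 to 0.49. No detection calls were used, so these signals were not set against background, and they give no level of TrkB in this tissue.

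Over the 10 arrays, the Pearson r of log2 signals with Bdnf was 0.037 for Ntrk3 and 0.03 for Ntrk2, given as a description.

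The probe sets most like Bdnf over the 10 arrays were those of 2 AP-1 transcription factors. Among 6741 tested probe sets with 1 symbol, Junb had the highest r with Bdnf (0.958) and Fos the next (0.937). Junb had signals of 552 ± 121 in deprived and 1115 ± 184 in non-deprived tissue (SD over 5 arrays), and Fos had 2069 ± 424 in deprived and 3792 ± 629 in non-deprived tissue. Deprived arrays 1 and 5, the lowest for Bdnf, were also the lowest for Junb, and non-deprived arrays 2 and 3, the highest for Bdnf, were the highest for Fos. The next in likeness were Fh1 (fumarate hydratase of the citric acid cycle, r = 0.896), H2ax (a histone H2A variant of DNA repair, 0.89), Phc2 (a Polycomb protein, 0.882) and Minpp1 (an inositol phosphate phosphatase, 0.88). These 4 had log2 differences of -0.28 to -0.17, and none of the 6 passed over all probe sets in the reported fit. With the replicate block Junb and Fos passed (limma adjusted p = 0.00367 and 0.00498), and without non-deprived replicate 1 both were at 0.0303. Over all single omissions, the limma adjusted p ranged from 0.0206 to 0.227 for Junb and from 0.0303 to 0.396 for Fos. The most opposite were a probe set of Mtor, the kinase of the mTOR complexes (r = -0.963), Itgb7, an integrin subunit (-0.926), and Dda1, a component of a ubiquitin ligase complex (-0.923).

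Since the groups do not overlap for Bdnf, a high r over 10 arrays contains the group difference, and these genes were picked as extremes, so no p is given. Taken as deviations from the group means, r was 0.854 for Junb, 0.772 for Fos, 0.742 for Fh1, 0.75 for H2ax, 0.859 for Phc2 and 0.77 for Minpp1. It was -0.923 for Mtor, -0.768 for Itgb7 and -0.836 for Dda1. Without deprived replicates 1 and 5, the arrays farthest from the median of Bdnf, r over the 8 others was 0.943 for Junb, 0.891 for Fos and -0.909 for Mtor, and 0.632 for Phc2. The median r over all 6741 probe sets was -0.031, with 11 above 0.85 and 14 below -0.85.

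Other probe sets of the same genes did not always share the pattern. A further Junb probe set, made under relaxed rules, had r = 0.587 with Bdnf and a log2 difference of -0.48 ± 0.14 (SE), where the first, an incomplete set, had -1.0 ± 0.15. The Mtor probe set that ran opposite to Bdnf had 565 ± 84.7 in deprived and 430 ± 43.4 in non-deprived cortex (log2 0.38 ± 0.12 SE). The brighter Mtor probe set had 1217 ± 100 in deprived and 1303 ± 45.3 in non-deprived cortex (log2 -0.10 ± 0.08 SE), with r = 0.292. The Dda1 probe set, of relaxed rules, was joined by 4 others whose r lay between -0.306 and -0.005. The second Fos probe set lay below the filter and had r = -0.337.

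**Figure D3:**
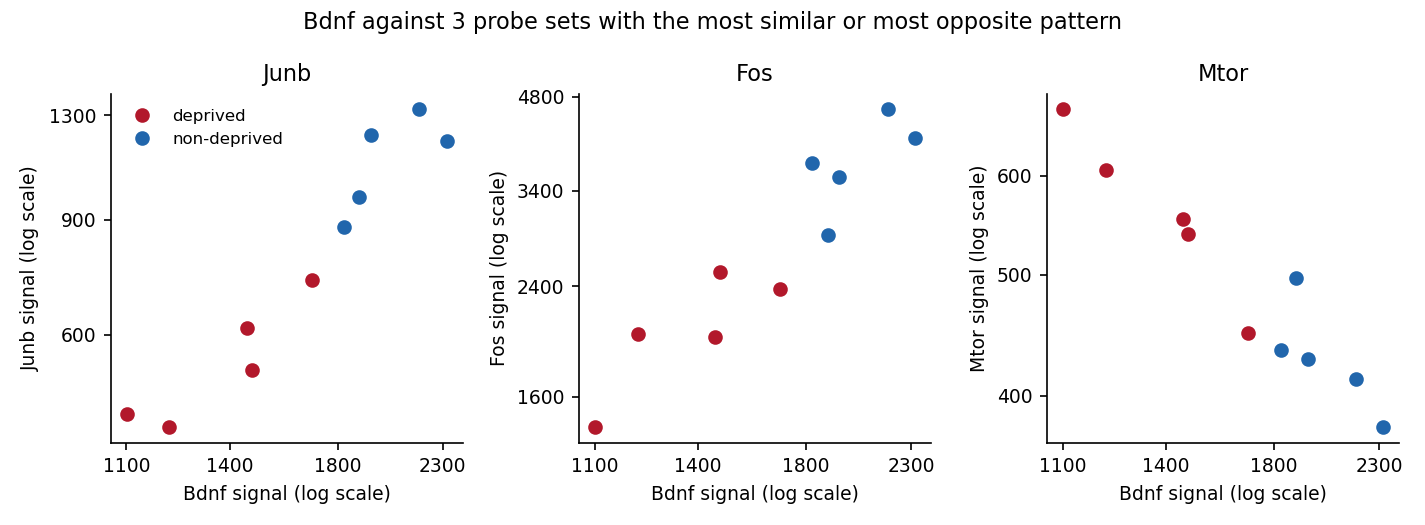
Signal of Bdnf (horizontal, log scale) against that of Junb, Fos and the opposite Mtor probe set (vertical, log scale), one point per array, deprived and non-deprived in different colours. Junb (r = 0.958) and Fos (r = 0.937) increase with Bdnf within and between the groups, and this Mtor probe set decreases (r = -0.963).

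The genes that act around the receptors were described by 6 lists, each gene by its brightest probe set. Over all 7453 tested probe sets the median log2 difference was 0.0066, 48.0% of estimates were below 0, and 4.79% had an unadjusted p under 0.05. In none of the 6 lists did a gene pass over all probe sets in the reported limma fit. Of the 31 listed co-receptors, adaptors and docking proteins, 16 had a probe set and 10 were tested, with 5 estimates below and 5 above 0 and a median of -0.019. At an unadjusted p under 0.05, 1 was lower and 1 higher. The lower was Irs2, an insulin receptor substrate that also docks PI3 kinase, with 219 ± 83.7 in deprived samples and 346 ± 68.9 in non-deprived samples (log2 -0.69 ± 0.23 SE). The higher was Gab1, a docking protein below Grb2, with 385 ± 46.1 in deprived and 322 ± 35.0 in non-deprived samples (log2 0.24 ± 0.11 SE), while a second tested Gab1 probe set gave -0.06 ± 0.21. The unadjusted p for Gab1, 0.0481 in limma, was over 0.05 without a filter (0.0527), under median scaling (0.078) and without deprived replicate 1 (0.126), among other settings. Plcg1, the phospholipase that Trk receptors phosphorylate, had 0.14 ± 0.18 and the adaptor Traf6 0.097 ± 0.13, or -0.10 ± 0.21 on another tested probe set. The bright Maged1, a p75-binding protein, had -0.071 ± 0.099, and Grb2, which links receptors to Ras, 0.017 ± 0.14, which turned to -0.018 under median scaling.

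Of 36 listed kinase relays below the Trk receptors, 21 had a probe set and 17 were tested. None had an unadjusted p under 0.05 in the reported fit, 11 estimates were below and 6 above 0, and the median was -0.074. Camk2a, a calcium-calmodulin kinase of excitatory neurons, had the estimate farthest below 0 (log2 -0.29 ± 0.18 SE), and its relative Camk2b had -0.10 ± 0.077. Rap1a, a small GTPase that can feed the ERK cascade, had 0.23 ± 0.12 on its brightest probe set and -0.23 ± 0.17 on another. Akt2, a kinase downstream of PI3 kinase, had -0.11 ± 0.084 and Nras, a Ras GTPase, 0.052 ± 0.11, or -0.069 ± 0.10 on another. The signals of Camk2b were 6192 ± 325 in deprived and 6671 ± 623 in non-deprived cortex (SD, n = 5 each).

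Genes that process or release neurotrophin precursors lay on both sides of 0. Of 23 listed, 18 had a probe set and 14 were tested, 6 estimates were below and 8 above 0, and the median was 0.02. None had an unadjusted p under 0.05 in the reported fit. Scg2, a granin of secretory granules, had 1576 ± 188 in deprived samples and 1798 ± 121 in non-deprived samples (log2 -0.19 ± 0.092 SE). The proprotein convertases Pcsk7 and Pcsk6 had log2 differences of -0.24 ± 0.17 and 0.25 ± 0.21 (SE), and both moved by over 1.5 times with single arrays left out. Serpini1, neuroserpin, an inhibitor of tissue plasminogen activator, had 0.09 ± 0.067. The bright granule genes Cpe, carboxypeptidase E, and Chgb, another granin, had -0.028 ± 0.084 and -0.015 ± 0.088, and a second tested Cpe probe set gave 0.0088 ± 0.08.

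Known regulators of Bdnf transcription had mostly small negative estimates. Of 29 listed, 19 had a probe set and 18 were tested, with 15 estimates below and 3 above 0, a median of -0.057 and a range from -0.24 to 0.12. None had an unadjusted p under 0.05 in the reported fit. Hdac5, a class II histone deacetylase, had 2207 ± 165 in deprived and 2402 ± 160 in non-deprived cortex (log2 -0.12 ± 0.079 SE). The repressor Bhlhe40 had -0.18 ± 0.13, and its unadjusted p in limma ranged from 0.0312 to 0.343 with single arrays left out. The NF-kappaB subunit Rela had -0.094 ± 0.081. Crem, a relative of CREB, had -0.19 ± 0.17, or -0.041 ± 0.2 on another tested probe set. The bright Mef2d, an activity-dependent transcription factor, had -0.037 ± 0.10, and Ppp3ca, the catalytic subunit of calcineurin, 0.061 ± 0.087.

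Among transcripts known to respond to BDNF in cultured neurons, many of which also respond to neuronal activity itself, 11 of the 22 tested had lower signals in deprived cortex at an unadjusted p under 0.05 and none had higher. Of 32 listed, 25 had a probe set. The estimates were below 0 for 18 and above 0 for 4, with a median of -0.28, which became -0.39 with a filter at the 60th percentile. The list was chosen with these genes' results known, so its count is no independent evidence of a direction. For 6 of the 22 the groups did not overlap, all lower in deprived cortex. Over all tested probe sets, 0.47% were lower without overlap and 2.36% were lower at an unadjusted p under 0.05. Dusp6, a phosphatase that inactivates ERK, had 1783 ± 121 in deprived samples and 2758 ± 350 in non-deprived samples (log2 -0.62 ± 0.094 SE), with an adjusted p of 0.0503 in limma. It passed under the 60th percentile filter (0.0325), with a pseudocount of 50 (0.0493), with the replicate block (0.0178) and without non-deprived replicate 1 (0.0303). With other single arrays left out, its adjusted p in limma reached 0.249. The zinc-finger factor Egr1 had 5307 ± 388 in deprived and 7419 ± 1070 in non-deprived samples (log2 -0.47 ± 0.097 SE). Fos had a log2 difference of -0.88 ± 0.15 and Nr4a1, an orphan nuclear receptor, one of -0.85 ± 0.18. Neither passed in the reported limma fit, but both passed with the replicate block (adjusted p = 0.00498 for Fos and 0.00372 for Nr4a1) and without non-deprived replicate 1 (0.0303 each). With other single arrays left out, the limma adjusted p reached 0.396 for Fos and 0.999 for Nr4a1. Without the intensity trend it was 0.353 and 0.612. Dim further probe sets of Fos and Egr1 below the filter gave 0.12 ± 0.21 and 0.20 ± 0.27. Junb is counted here by its probe set of relaxed rules. Gad1, which makes GABA in the inhibitory neurons that BDNF is known to mature, had 4653 ± 783 in deprived and 4760 ± 477 in non-deprived cortex (log2 -0.042 ± 0.11 SE).

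Other neurotrophic factors and receptors showed no common direction. Of 29 listed, 25 had a probe set and 17 were tested, with 9 estimates below and 8 above 0, a median of -0.00091 and 1 lower at an unadjusted p under 0.05. That gene was Mdk, midkine, a heparin-binding growth factor, at 98.2 ± 56.6 in deprived samples and 198 ± 112 in non-deprived samples (log2 -0.89 ± 0.38 SE). The deprived mean of Mdk lay below the filter signal of 115, so it was tested only through its higher non-deprived signals. Without non-deprived replicate 4 (311.6) or 5 (325.1) it fell below the filter and was not tested. Its unadjusted p in limma was 0.036, and it was 0.0783, 0.0957 and 0.0712 without deprived replicate 1, 2 or 3. With the replicate block it was 0.000199, which did not pass either (adjusted p = 0.135). The GDNF family ligands Gdnf and Artn had -0.37 ± 0.22 and -0.31 ± 0.27, with ranges of -0.5 to -0.16 and -0.44 to -0.11 when single arrays were left out. The receptor Igf1r had 0.10 ± 0.10 and its bright ligand Igf1 -0.073 ± 0.13.

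**Figure D4:**
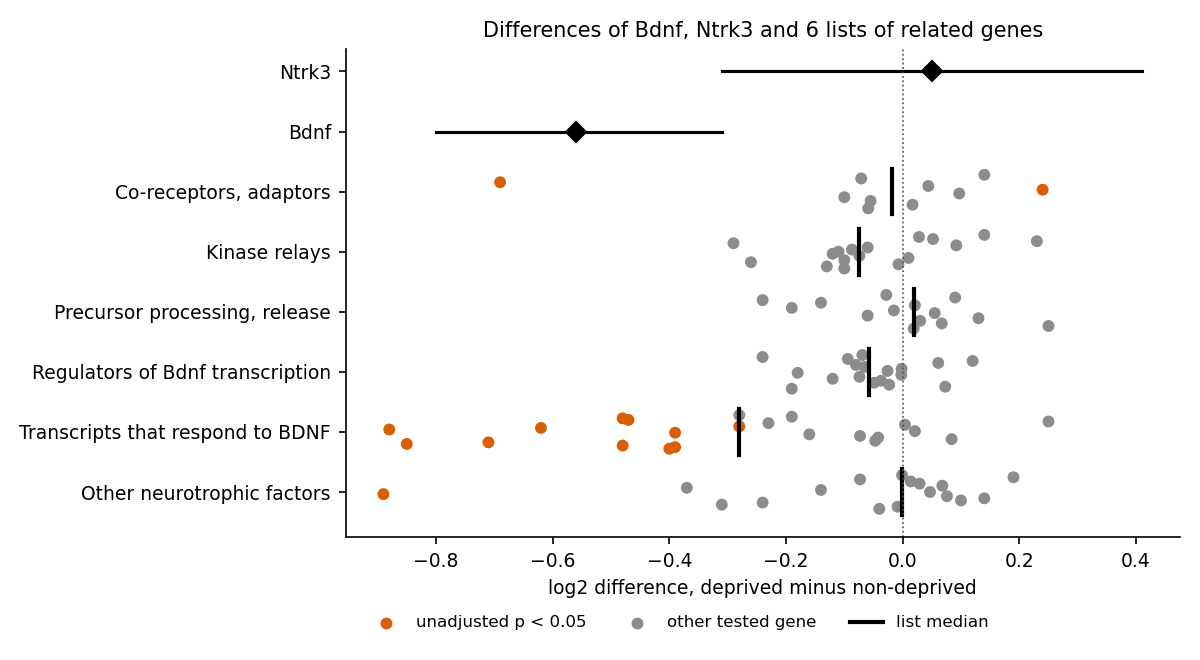
Log2 difference, deprived minus non-deprived (horizontal axis), for Ntrk3 and Bdnf (diamonds with 95% intervals) and for each tested gene of the 6 lists (points; vertical lines mark list medians). Points with an unadjusted p under 0.05 number 11 of 22 among BDNF-responsive transcripts, all below 0, and 3 over all other lists. Over all tested probe sets the share was 4.79%.

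Markers of cell types and neighbouring tissue were measured beside Bdnf. All measured markers of the 8 marker lists had a value above 0 on some array, which does not show that they were detected. The summed signal of each list overlapped between the groups, but such a sum mainly follows its brightest markers. Of 45 tested markers, 2 had an unadjusted p under 0.05, against 4.79% of all tested probe sets, and none passed in limma. Both were higher in deprived cortex: the astrocyte marker Slc1a2 (log2 0.38 ± 0.14 SE) and Igf2 of the endothelium, mural cell and meninges list (0.3 ± 0.13 SE). The 5 measured excitatory cortical markers summed to 12741 to 16754 in deprived and 12977 to 15277 in non-deprived arrays. Most of this came from Tbr1 (mean 6307 in deprived and 6334 in non-deprived) and Nrgn (5750 and 5610). The 7 hippocampal markers, given because hippocampal neurons also make Bdnf, summed to 1930 to 3106 in deprived and 1800 to 2913 in non-deprived arrays. Most of this came from Wfs1 (mean 1169 in deprived and 1021 in non-deprived) and Calb2 (520 and 522), and 3 markers (Prox1, Dsp and Tdo2) lay below the filter. The sum is no measure of how much hippocampal tissue the samples held, which was not tested. Beta-actin control probe sets had 3' over 5' signals, a measure of RNA degradation, of 1.43 to 1.7 on deprived arrays and of 1.45 to 1.9 on non-deprived ones. The part of these measures in the Bdnf difference was not tested.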

How the data were processed

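RNA of 10 visual cortex samples was measured on 1 Affymetrix array each. The deposited values are MAS5 signal intensities on a linear scale, 1 per probe set and array, with MAS5 credited to the submitters' processing notes. Neither its version nor a scaling target is given in the sources used here. Array medians lay between 190.8 and 208.7 and the 2% trimmed means between 500.25 and 500.27, so the arrays had been scaled alike. Arrays of a group correlated at 0.957 to 0.979 across tested probe sets. Precision is limited by the number of arrays.

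Control probe sets (66) were not tested. Symbols came from the platform annotation, updated through Entrez IDs, and 10833 of 12422 probe sets had 1 symbol, 396 several and 1193 none. Signals became log2(signal + 16), the 40th percentile of mean log2 signal was the filter, and 7453 probe sets were tested in limma 3.58.1 (R 4.3.3) with an intensity trend and Benjamini-Hochberg adjustment. Limma was tested on simulated data. Every member probe set was named, with the 4 genes of smallest p and the 2 brightest of each list, and the 6 probe sets most and 3 least like Bdnf. The members and lists were chosen with earlier results of these data known. Alternatives were pseudocounts of 1 and 50, no filter or one at the 60th percentile, quantile normalization, median scaling, no trend, replicate number as a block, and each array left out.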

Additional observations from a re-analysis of the deposited data

Results flagged for a closer look

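In 88 groups of 5 arrays (44 named probe sets), 6 held an array whose gap to its neighbour was over 0.71 of the group's range on the log2 scale, and chance flags about 1 group in 20. Ntrk2 in deprived replicate 3 had 41.8 against 16.2 to 21.1 in the other deprived arrays, a gap of 0.758 of the range. Pcsk6 in deprived replicate 2 had 130 against 224 to 244 (0.855), and Igf1 in the same array 833 against 1266 to 1315 (0.916). The other 3 were high in deprived replicate 1, the array with the lowest Bdnf: Bhlhe40 at 1195 against 841 to 924 (0.732), Gad1 at 6034 against 4152 to 4463 (0.807) and Itgb7 at 428 against 313 to 342 (0.721).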

How the results depend on the processing

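Bdnf kept its direction under all 18 alternatives. Its log2 difference lay between -0.59 and -0.54 in the 8 settings on all arrays, at a limma adjusted p from 0.0888 (replicate block) to 0.612, and between -0.63 and -0.48 with an array left out. The count of probe sets past an adjusted p of 0.05 was 0 in the reported fit. It was 2 (Dusp6 and Junb) when the pseudocount was 50 and likewise when the filter was the 60th percentile, 6 (Capn1, Dusp1, Dusp6, Fos, Junb and Nr4a1) with the replicate block, and 0 to 5 with an array left out. The 5 (Btg2, Dusp6, Fos, Junb and Nr4a1) came without non-deprived replicate 1 and 1 (Junb) without deprived replicate 4. Same-numbered samples correlated in their deviations at 0.14, 0.182, 0.222, 0.227 and 0.0222, and 4 of the 5 numbers were over 0.1, each above any match with another number. The labels state no method of comparison, so the plain fit of the groups was the reported one and the block an alternative. The correlations leave a hint from the data, which the labels do not settle, that same-numbered samples are related. Ntrk3 ranged from -0.028 to 0.16 with an array left out. With an array left out, list medians ranged from -0.031 to 0.056 for precursor processing, from -0.085 to 0.046 for co-receptors and adaptors, from -0.042 to 0.023 for other neurotrophic factors, from -0.089 to -0.02 for kinase relays, from -0.085 to -0.015 for regulators of Bdnf and from -0.32 to -0.25 for BDNF-responsive transcripts, and the last was -0.39 with the 60th percentile filter. With an array left out, estimates ranged from -0.023 to 0.24 for Plcg1, from -0.094 to 0.11 for Grb2, from -0.036 to 0.11 for Nras, from -0.063 to 0.037 for Chgb, from -0.11 to 0.027 for Mef2d, from -0.14 to 0.014 for Gad1, from 0.082 to 0.4 for Pcsk6, from -0.31 to -0.14 for Pcsk7 and from -0.13 to 0.053 for Igf1. Grb2 was -0.018 under median scaling. The causes were not tested. Without detection calls, dim probe sets such as that of Ntrk2 could not be set against background.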
